A study of Mus musculus with 12 samples.

Results

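The serum amyloid A genes Saa1, Saa2, Saa3 and Saa4 were followed in mouse liver during severe acute pancreatitis (SAP). They were taken by their symbols, 4 of the 55367 gene symbols in the expression table. The groups were 6 SAP livers and 6 Control livers, all from wild-type Balb/c mice aged 6 weeks. Per the labels the SAP animals received caerulein, an analogue of the hormone cholecystokinin that drives the pancreas to damage itself with its own enzymes. Neither the dose nor the time of sampling is stated. Whether each library is its own animal is not stated either, and the p-values below refer to the spread between libraries, which may be technical.

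Serum amyloid A proteins are small apolipoproteins that travel on high-density lipoprotein (HDL). In the acute-phase response the cytokines IL-6, IL-1 and TNF act on hepatocytes, and STAT3, NF-kB and C/EBP transcription factors drive the inducible genes of the family. Saa1 and Saa2 are the main circulating acute-phase forms, Saa3 is also made by macrophages and adipose tissue in mice, and Saa4 is known as the constitutive form.

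In GENCODE M21 on GRCm38 the 4 genes lie in a cluster of 42.3 kb on chromosome 7, with no other protein-coding gene inside it. Saa3 spans 46711998 to 46715700, Saa4 spans 46727998 to 46732603 and Saa1 spans 46740497 to 46742980, all on the minus strand. Saa2 spans 46751790 to 46754313 on the plus strand. Saa1 and Saa2 therefore point away from each other, with starts 8.81 kb apart. The unprocessed pseudogene Saa-ps lies between Saa4 and Saa1, at 46734787 to 46736671. The genome build behind the deposited values is not stated, so these positions describe the reference only.

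The sequences before the 4 starts are shown because the genes sit side by side yet changed by very different amounts. Each is the 250 bases upstream of the RefSeq start on GRCm38.p6, read 5′ to 3′ on the gene's own strand: chr7:46742981-46743230 (minus) for Saa1, chr7:46751583-46751832 (plus) for Saa2, chr7:46715677-46715926 (minus) for Saa3 and chr7:46732604-46732853 (minus) for Saa4. For Saa2 and Saa3 the RefSeq start lies inside the GENCODE gene, so the end of the window overlaps it. Capitals mark matches to the C/EBP letters TTNNGNAA on either strand.
Saa1: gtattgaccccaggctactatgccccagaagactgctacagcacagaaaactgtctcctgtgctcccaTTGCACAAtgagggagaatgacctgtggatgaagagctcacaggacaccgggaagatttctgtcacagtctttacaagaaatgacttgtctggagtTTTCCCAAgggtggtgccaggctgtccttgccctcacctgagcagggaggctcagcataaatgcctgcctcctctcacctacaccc
Saa2: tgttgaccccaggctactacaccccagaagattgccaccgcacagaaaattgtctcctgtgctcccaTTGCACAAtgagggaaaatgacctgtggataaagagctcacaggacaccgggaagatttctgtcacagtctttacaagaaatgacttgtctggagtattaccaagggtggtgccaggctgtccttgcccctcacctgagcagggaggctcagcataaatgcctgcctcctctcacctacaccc
Saa3: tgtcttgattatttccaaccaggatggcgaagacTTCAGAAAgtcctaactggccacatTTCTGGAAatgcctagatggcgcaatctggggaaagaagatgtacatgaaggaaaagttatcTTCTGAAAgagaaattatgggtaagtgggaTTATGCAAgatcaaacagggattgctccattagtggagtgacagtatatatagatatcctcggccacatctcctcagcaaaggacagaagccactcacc
Saa4: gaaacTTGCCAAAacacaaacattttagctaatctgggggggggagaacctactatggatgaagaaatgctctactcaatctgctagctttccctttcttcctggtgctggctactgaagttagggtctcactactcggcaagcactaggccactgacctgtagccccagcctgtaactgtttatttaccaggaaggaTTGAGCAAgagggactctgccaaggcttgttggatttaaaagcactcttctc

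The Saa1 and Saa2 windows were 94.8% identical over their alignment, while Saa3 and Saa4 shared between 42.8% and 48.2% with any other member. The C/EBP letters occurred 2 times before Saa1, 1 time before Saa2, 4 times before Saa3 and 2 times before Saa4. The match TTGCACAA stood before both Saa1 and Saa2, and TTTCCCAA stood before Saa1 only. At least 1 such match was found in 36.9% of the 27025 promoters searched, so these letters are common. The STAT letters TTCNNNGAA (7.18% of promoters) and the standard NF-kB consensus (7.01%) had 0 matches in the 4 windows. A looser NF-kB form, GGNNNTTNC (38.1% of promoters), had 1 match each before Saa1 and Saa3, of which the Saa1 match overlaps the C/EBP letters TTTCCCAA and the Saa3 match overlaps TTCTGGAA. A match of letters is not a binding site, and no match says only that the letters are not in this window.

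Transcript levels were read as TPM, a length-scaled abundance that sums to about the same total in every library. No label names the unit, and the totals (993412 to 995793) do not show that the values were scaled by length. Comparisons of level between genes, such as orders, ranks and shares, rest on that reading. Changes are differences of log2(TPM + 1), SAP minus Control, from limma fitted to the 11335 genes that reached 1 TPM in 6 or more libraries. All 4 members passed that filter. Depth per library is unknown, because TPM keeps none. Genes with at least 1 TPM numbered 10802 to 11708 in SAP libraries and 11216 to 11517 in Control libraries. In 5 libraries, SAP 11, 13, 14 and 15 and Control 5, the nuclear RNA Xist lay between 4.59 and 17.1 TPM, against 49.1 to 60.7 TPM in the other 7, a split that falls unevenly over the groups. Malat1, another nuclear RNA, split the same libraries, at 2.76 to 8.19 TPM against 26.2 to 40.1 TPM. Mitochondrially encoded genes held 5.99 ± 0.752% of TPM in SAP and 7.15 ± 0.572% in Control (SD, n = 6 each). In bulk tissue, fewer cells of a type and less RNA per cell cannot be told apart.

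All 4 serum amyloid A genes were higher in SAP livers, and Saa3, Saa2 and Saa1 were the 3 genes with the largest log2 increases of all those tested. Saa3 was 1054 times, Saa2 586 times and Saa1 115 times the Control mean, whereas Saa4 was 2.98 times it. For each of the 4, no SAP value overlapped the Control values. Over all tested genes, 19.5% were higher in SAP and 25% lower at an adjusted p under 0.05 (44.5% in either direction), and 10.5% were higher with no overlap of the groups (25.6% in either direction). The median change of all tested genes was -0.03.

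Saa1, which encodes a main acute-phase serum amyloid A, stood at 32804, 41328 and 59517 TPM (lowest, median, highest) in SAP livers, against 83.2, 374 and 629 TPM in Control livers. SAP 14 was the highest SAP library and SAP 12 the lowest, and in controls Control 7 was the highest and Control 5 the lowest. The means were 41747 ± 9674 TPM in SAP and 364 ± 214 TPM in Control (SD, n = 6 each). The change was 7.10 ± 0.41 on the log2 scale (SE; limma adjusted p = 5.05e-08). The lowest SAP value was 52.2 times the highest Control value.

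Saa2, the near copy of Saa1, stood at 36352, 44890 and 64833 TPM in SAP livers, against 25.7, 68.2 and 136 TPM in Control livers. SAP 14 was again highest and SAP 12 lowest, and Control 5 was again the lowest control, below Control 3. The means were 46023 ± 10189 TPM in SAP and 78.5 ± 45.6 TPM in Control (SD, n = 6 each), and the log2 change was 9.38 ± 0.35 (SE; limma adjusted p = 8.20e-10).

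Saa3, the form that macrophages and adipose tissue also make, stood at 7990, 10851 and 15750 TPM in SAP livers, against 7.59, 10.7 and 13.9 TPM in Control livers. SAP 14 was highest and SAP 15 lowest, with SAP 11 close above it, and Control 5 and Control 6 were the lowest controls. The means were 11114 ± 3002 TPM in SAP and 10.5 ± 2.58 TPM in Control (SD, n = 6 each). Its log2 change was 9.90 ± 0.18 (SE; limma adjusted p = 7.08e-13), above that of Saa2 over all libraries but not under quantile normalization (9.70 for Saa3, 9.75 for Saa2) or in the 5 libraries with low Xist (10.24 for Saa3, 10.79 for Saa2).

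Saa4, the constitutive form, stood at 394, 570 and 809 TPM in SAP livers, against 160, 196 and 218 TPM in Control livers. SAP 13 was highest and SAP 12 lowest, and the controls were close to one another, with Control 5 lowest. The means were 580 ± 135 TPM in SAP and 195 ± 22.2 TPM in Control (SD, n = 6 each). Its log2 change of 1.55 ± 0.14 (SE; limma adjusted p = 1.86e-06) ranked 126th of all tested genes.

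**Figure D1:**
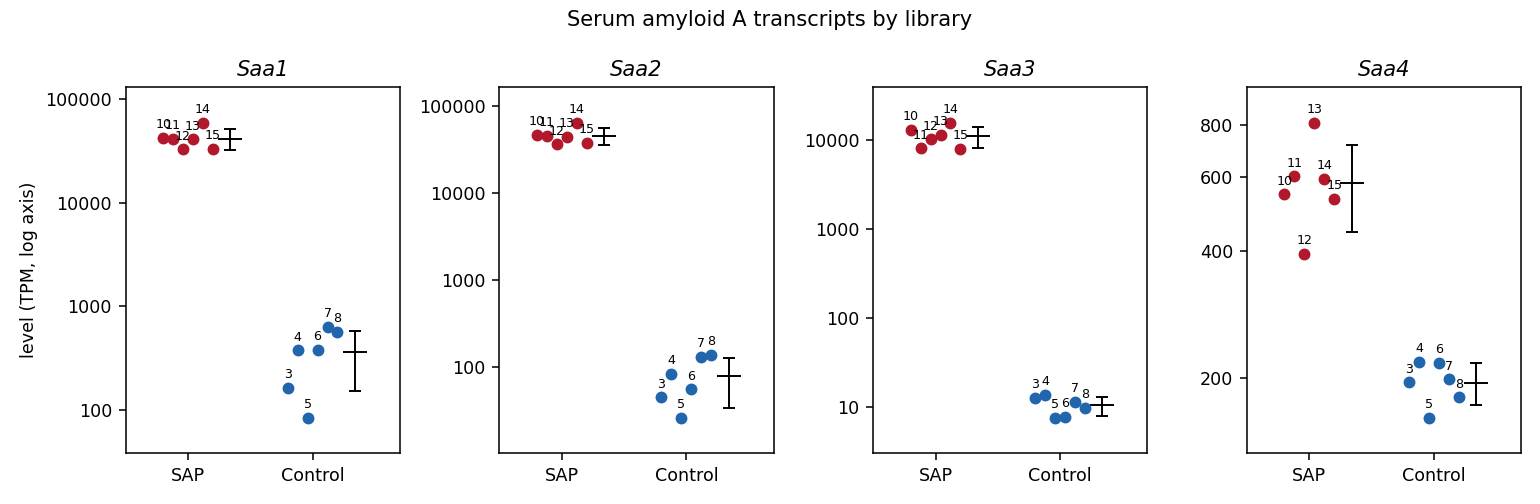
Levels of Saa1, Saa2, Saa3 and Saa4 (TPM, log axes that differ between panels) in 6 SAP livers and 6 Control livers, each point 1 library with its number and the bars the arithmetic mean ± SD. In every panel all SAP points lie above all Control points, by at least 1.81 times for Saa4 and at least 52.2 times for the other 3.

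The spread between controls was uneven. Among Control livers the highest value was 7.56 times the lowest for Saa1 and 5.30 times for Saa2, but 1.82 times for Saa3 and 1.36 times for Saa4. Among SAP livers it lay between 1.78 and 2.05 times for all 4. The coefficient of variation of Saa1 was 23.2% in SAP and 58.7% in Control, and that of Saa2 was 22.1% in SAP and 58.0% in Control.

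The order of the 4 levels also differed between the groups. In each of the 6 SAP livers it ran Saa2, Saa1, Saa3, Saa4, and Saa2 and Saa1 held the first and second place among all genes. Saa3 ranked between 11 and 20 there, and Saa4 between 139 and 301. In Control livers, where Saa3 was lowest in all 6 (rank 4307 to 6089), Saa1 ranked between 207 and 1277, Saa4 between 615 and 781 and Saa2 between 895 and 2925. Saa1 was above Saa4 in 4 of 6 controls and below it in Control 3 and Control 5, so these neighbours in the order did not separate. Saa1 and Saa2 were close in SAP as well, their group ranges overlapping, though Saa2 was the higher in each library.

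Ratios of TPM + 1 between members of the same library were compared next. Multiplying a library by a factor changes them only through the added 1, which weighs most on Saa3 in controls, whereas quantile normalization can change them. They were tested with exact two-sided permutation tests, and the p of 0.00216 found for each of the 3 ratios, before and after adjustment over the 3, is the smallest such a test can give. Saa2/Saa1, the ratio of the near copies, lay between 1.08 and 1.14 in SAP livers and between 0.148 and 0.316 in Control livers. That is a difference of 2.27 ± 0.16 in log2 ratio (SE), with no overlap. In these values Saa2 thus increased by more than Saa1, as far as reads of these near copies were told apart.

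Saa3/Saa1 lay between 0.196 and 0.312 in SAP livers and between 0.0193 and 0.102 in Control livers, a difference of 2.79 ± 0.45 in log2 ratio (SE). Saa4/Saa1 lay between 0.0100 and 0.0197 in SAP livers and between 0.316 and 1.92 in Control livers, a difference of -5.56 ± 0.45 (SE). Saa3 therefore increased by more than Saa1, and Saa4 by less. The difference between the changes of Saa3 and Saa2 was not tested.

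**Figure D2:**
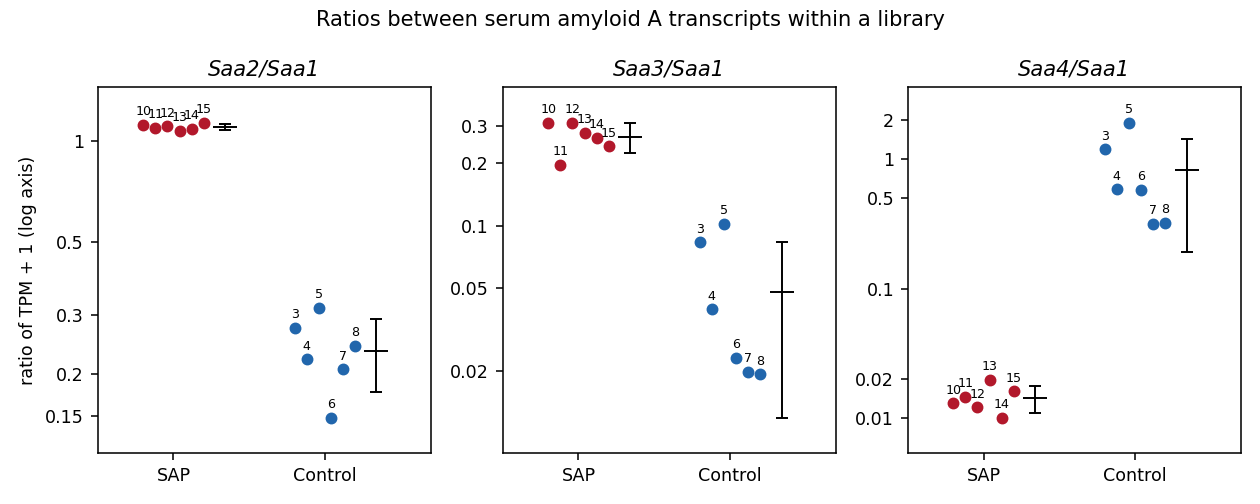
Ratios of TPM + 1 within each library (log axes that differ between panels) for Saa2/Saa1, Saa3/Saa1 and Saa4/Saa1 in 6 SAP and 6 Control livers, each point 1 numbered library and the bars the arithmetic mean ± SD. The SAP ratios of Saa2/Saa1 (1.08 to 1.14) lie close together above all controls, and those of Saa4/Saa1 (0.0100 to 0.0197) lie below all controls.

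Together the 4 genes took 8.00%, 9.73% and 14.1% of a library's TPM (lowest, median, highest) in SAP livers, against 0.0278%, 0.0674% and 0.0973% in Control livers. SAP 14 held the largest share and Control 5 the smallest. Of this pool Saa2 made up 46.3 ± 0.969% in SAP and 11.5 ± 2.60% in Control (SD, n = 6 each). Saa1 made up 41.9 ± 0.891% in SAP and 51.6 ± 13.9% in Control, with overlap of the groups. Saa4 made up 0.595 ± 0.145% in SAP and 35.1 ± 14.9% in Control, and Saa3 11.2 ± 1.67% in SAP and 1.88 ± 0.858% in Control. The make-up varied little between SAP livers and widely between controls, mostly in the balance of Saa1 and Saa4.

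Because TPM has a fixed total, a pool of that size lowers the TPM of all other genes in SAP. With each library rescaled without the 4 genes, the median change of all genes shifted by 0.13. Relative to the median of all genes, the rescaled changes were 7.15 for Saa1, 9.43 for Saa2, 9.94 for Saa3 and 1.60 for Saa4. The same rescaling gave 3498 genes higher and 2041 lower in SAP, in place of 2212 higher and 2832 lower.

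**Figure D3:**
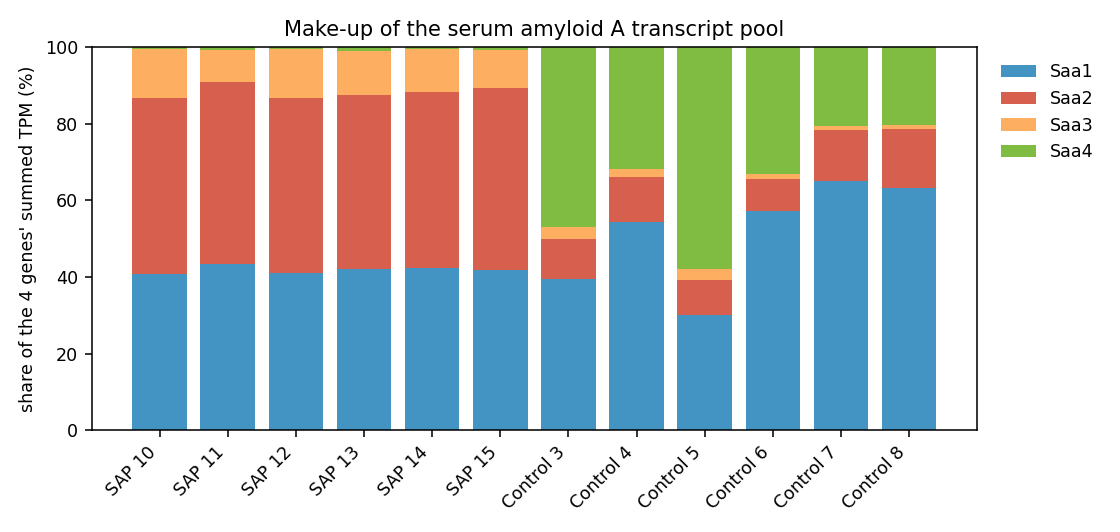
Share of each gene (percent) in the summed TPM of Saa1, Saa2, Saa3 and Saa4, 1 bar per library, with SAP 10 to 15 on the left and Control 3 to 8 on the right. Saa1 and Saa2 fill most of each SAP bar, while Saa4 takes between 20.2% and 57.9% of the Control bars.

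Saa1 and Saa2 transcripts are 93.9% identical in the GENCODE reference, a C57BL/6J sequence, and how the authors assigned reads that fit both is not stated. Of all windows of 50 bases in the Saa1 transcript, 13.2% also occur in Saa2, and of windows of 100 bases 0%. The separate levels of Saa1 and Saa2 are therefore uncertain. These shares do not give the size of that uncertainty, because the aligner is not stated and the mice were Balb/c. Saa3 shared 1.78% of its windows of 50 bases with Saa1 and none with Saa2, and Saa4 shared none with the other 3. The pseudogene Saa-ps was listed at 0 in 9 libraries and reached at most 1.23 TPM, in 3 of the SAP libraries. It was not tested.

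Within groups, the members' levels were compared library by library, with exact permutation tests of log2(TPM + 1) adjusted over 12 correlations. Saa1 and Saa2 varied together across the 6 SAP livers (Pearson's r = 0.997, exact adjusted p = 0.0333; Spearman's rho = 1, exact adjusted p = 0.0333). Without SAP 14 and SAP 12, the libraries farthest from the median of Saa1, r was 0.983. In Control livers r between them was 0.950 (exact adjusted p = 0.0667; rho = 0.886, exact adjusted p = 0.20). This is also the pair with the most shared sequence, 13.2% of the 50-base windows of Saa1, against 1.61% shared with Saa3. The other 10 correlations did not pass the threshold, with r between 0.171 and 0.753.

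Likeness to other genes was measured as Pearson's r of the deviations from the group means over all 12 libraries, among 7373 tested genes with a mean of at least 5 TPM. It is a description, and the points share the library and its scaling. Most like Saa1 were Saa2 (0.95), Cdv3 (0.84) and Txndc9 (0.84). Most like Saa2, after Saa1, were Lrg1 (0.90), a secreted leucine-rich glycoprotein of the acute phase, and Lcn2 (0.87), which encodes the siderophore-binding protein lipocalin 2. Most like Saa3 were C3 (0.86), the central complement component, Dlg1 (0.79) and Itih4 (0.79), an acute-phase inter-alpha-trypsin inhibitor chain. Most like Saa4 were Orm3 (0.87), an orosomucoid, Dleu2 (0.81) and Gstp2 (0.79).

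Of these genes, the acute-phase ones were also higher in SAP. Lcn2 averaged 10214 ± 1836 TPM in SAP and 186 ± 72.4 TPM in Control (SD, n = 6 each; log2 change 5.85). Lrg1 averaged 3004 ± 194 TPM in SAP and 502 ± 72.9 TPM in Control (2.59), and Itih4 6135 ± 584 TPM in SAP and 1286 ± 62.1 TPM in Control (2.25). C3 had a log2 change of 1.08 and Orm3 of 0.67. Cdv3 (0.07), Txndc9 (0.10), Dlg1 (-0.17), Dleu2 (-0.20) and Gstp2 (-0.10) did not pass the threshold.

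The genes around the cluster did not share its size of change. Of the 8 nearest protein-coding genes on each side, 8 of 16 passed the filter, and the rest stayed at or below 0.09 TPM. Saal1, which lies 1.3 kb from Saa3, averaged 2.73 ± 0.418 TPM in SAP and 3.02 ± 0.458 TPM in Control (log2 change -0.11, limma adjusted p = 0.401). Hps5, 6.2 kb from Saa2 on the other side, averaged 5.01 ± 1.35 TPM in SAP and 5.72 ± 1.34 TPM in Control (-0.16, limma adjusted p = 0.476). Both lay within the spread between libraries.

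Ldha, which encodes the A subunit of lactate dehydrogenase and lies 87.2 kb from Saa2, was the only tested neighbour whose groups did not overlap, at 1171 ± 52.5 TPM in SAP and 547 ± 51.3 TPM in Control (log2 change 1.10, limma adjusted p = 8.18e-08). Gtf2h1 (0.25) and Spty2d1 (0.29) were higher and Uevld (-0.29) lower at an adjusted p under 0.05. Sergef (0.30) and Tsg101 (-0.14) did not pass. So 3 of 8 tested neighbours were higher and 1 lower, against 19.5% and 25% of all genes. The call of Gtf2h1 was lost in 8 of 23 alternatives, that of Spty2d1 in 14 of 22 and that of Uevld in 12 of 22, while Ldha kept its call in all 23.

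**Figure D4:**
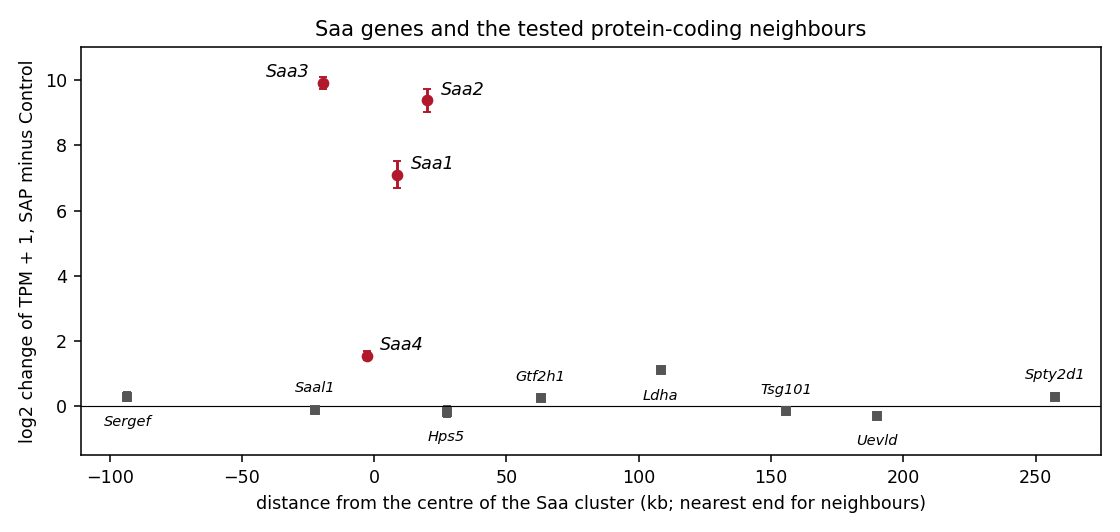
Log2 change of TPM + 1 (SAP minus Control, ± SE from limma) against distance in kb from the centre of the cluster, for the 4 serum amyloid A genes (red) and the 8 tested protein-coding neighbours (grey). The red points lie between 1.55 and 9.90, and the grey points between -0.29 and 1.10.

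Several receptors for the cytokines that induce the family were higher in SAP, while most of the cytokine transcripts themselves were at or near 0. Of 14 genes for inducing cytokines and receptors, Il6 and Il22 were listed at 0 in all 12 libraries, and Tnf and Osm reached at most 0.25 TPM. Of the 10 tested, 7 were higher, 2 lower and 1 not past the threshold, with a median log2 change of 0.63 beside -0.03 over all tested genes. That is 70% higher and 20% lower, beside 19.5% and 25% of all tested genes. Il1r1, the signalling receptor for IL-1, averaged 37.3 ± 11.4 TPM in SAP and 11.4 ± 2.47 TPM in Control (log2 change 1.59). Osmr, the oncostatin M receptor, changed by 1.21, Il22ra1, the IL-22 receptor, by 0.84, and Tnfrsf1a, the main TNF receptor, by 0.64. Osmr, which counts among the 7, reached at most 0.74 TPM in Control and passed the filter only through SAP libraries. The cytokine gene Il1b averaged 3.79 ± 1.53 TPM in SAP and 1.11 ± 0.372 TPM in Control (1.13). Il1a, also an IL-1 cytokine gene, averaged 2.16 ± 0.502 TPM in SAP and 1.045 ± 0.181 TPM in Control (0.62). Il6st, the signalling chain of the IL-6 receptor, averaged 30.4 ± 5.70 TPM in SAP and 19.4 ± 1.74 TPM in Control (0.61). Neither Il1a nor Il6st had overlap of the groups. The 2 lower genes were Il1rap, the accessory chain of the IL-1 receptor (-0.89), and Il6ra, the ligand-binding chain of the IL-6 receptor (-0.54). The call of Il6ra was lost in 8 of 23 alternatives. Il1a, Il1b, Il6st, Il1rap and Il6ra were named after their values were seen, as were Cebpb, Apoa1, Apoa4, Apoc2, Clec4f, Vsig4 and Timd4 below.

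Among 14 transcription factors and signal transducers of serum amyloid A induction, all tested, 5 were higher, 1 lower and 8 not past the threshold (median 0.19), which is 35.7% higher and 7.14% lower beside 19.5% and 25% of all tested genes. Socs3, the feedback inhibitor that STAT3 induces, stood at 14.5, 34.4 and 52.9 TPM in SAP livers, against 1.29, 2.05 and 2.63 TPM in Control livers, with no overlap (log2 change 3.43, limma adjusted p = 3.39e-07). Nfkbiz, an atypical inhibitor-family regulator of NF-kB, changed by 0.82, Stat3 by 0.66 and Rela, an NF-kB subunit, by 0.22. Cebpb, a C/EBP factor, was the lower gene, at 47.6 ± 13.7 TPM in SAP and 78.3 ± 27.0 TPM in Control (-0.69, limma adjusted p = 0.0276), a call that was lost in 11 of the 23 alternatives.

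Of 16 genes for the apolipoproteins, enzymes and transporters of HDL, the particle that carries serum amyloid A, 7 were higher, 7 lower and 2 not past the threshold (median 0.19), which is 43.8% in each direction beside 19.5% higher and 25% lower of all tested genes. Lipc, hepatic lipase, averaged 30.2 ± 10.2 TPM in SAP and 187 ± 29.4 TPM in Control (log2 change -2.63). The apolipoprotein genes Apoa2 (-1.13), Apoc1 (-1.07) and Apoc3 (-0.97) were lower too. The 2 directions were not alike in size. All 7 lower genes had no overlap of the groups, with changes from -0.75 to -2.63. Of the 7 higher genes only Apoa4 and Apoc2 had none, and the others changed by 0.18 to 0.30. Apoa4 averaged 2802 ± 567 TPM in SAP and 930 ± 268 TPM in Control (1.61), and Apoc2 1045 ± 158 TPM in SAP and 564 ± 64.8 TPM in Control (0.88). Apoa1, the main structural protein of HDL, averaged 11181 ± 593 TPM in SAP and 9504 ± 875 TPM in Control (0.24, limma adjusted p = 0.0221), below Saa1 and Saa2 in every SAP liver. Under quantile normalization its change was -0.29 (limma adjusted p = 0.0131), so its direction depends on the scaling.

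Of 10 genes for receptors to which serum amyloid A is reported to bind, and their co-receptors, 7 were tested, 4 were higher and none lower (median 0.57), which is 57.1% higher beside 19.5% of all tested genes. Cd14, a co-receptor of Toll-like receptors, stood at 5.50, 17.5 and 83.9 TPM in SAP livers, against 1.46, 2.45 and 2.97 TPM in Control livers (log2 change 2.62). Its SAP values were widely spread but did not overlap the controls. Tlr2 (0.72), Fpr2, the formyl peptide receptor (0.69), and Lrp1 (0.57) were also higher. Tlr2, which counts among the 4, stayed below 1 TPM in every control and passed the filter only through SAP libraries. Tlr4, P2rx7 and Ager were not tested and reached at most 1.48 TPM.

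Of 10 genes for proteases that cut serum amyloid A and for partners in amyloid deposits, 8 were tested, with 2 higher, 2 lower and 4 not past the threshold (median 0.07). That is 25% in each direction, near the 19.5% higher and 25% lower of all tested genes. Apcs, serum amyloid P component, which binds amyloid fibrils and is itself an acute-phase protein in mice, averaged 2997 ± 225 TPM in SAP and 864 ± 191 TPM in Control (log2 change 1.82). Mmp14, a membrane metalloproteinase, changed by 1.02, and Ctsb, the lysosomal protease cathepsin B, by -0.72. Ctsd, cathepsin D, was called lower at -0.17 but was higher, at 0.23, under quantile normalization, and lost the call in 12 other alternatives of 23.

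**Figure D5:**
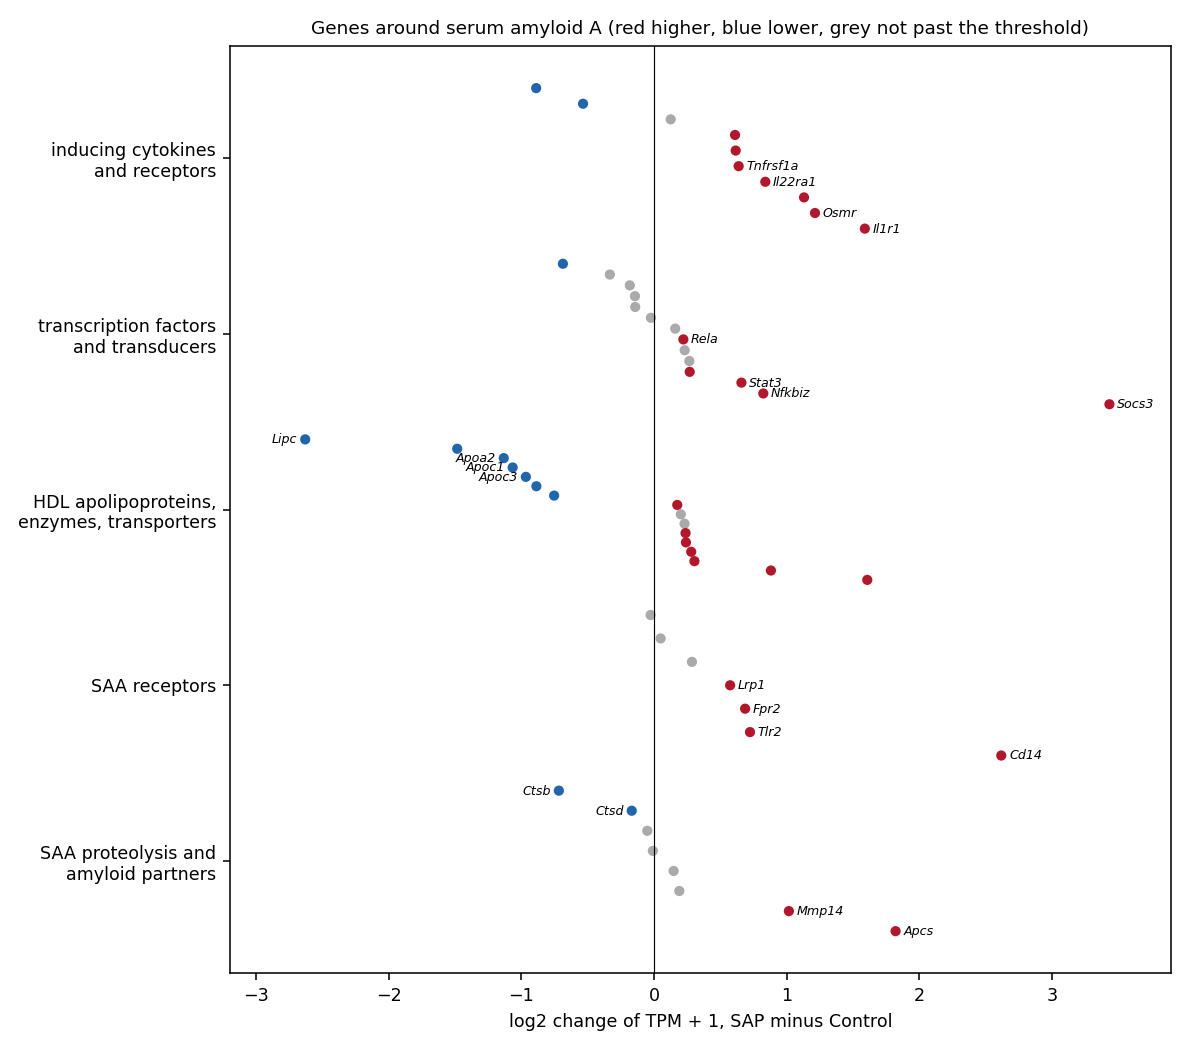
Log2 change of TPM + 1 (SAP minus Control) of each tested gene in 5 lists around serum amyloid A, with genes higher in SAP in red, lower in blue and not past the threshold in grey, and the 4 with the smallest adjusted p of each list named. Socs3 (3.43) lies farthest to the right and Lipc (-2.63) farthest to the left.

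Markers of cell types were read beside these values. Of 7 hepatocyte markers measured, 6 were lower in SAP, which is 85.7% beside 25% of all tested genes. Among the lower ones were Cps1 (-2.21) and Alb (-1.24), while the smallest lower change was -0.20. The marker that did not pass changed by 0.18. The summed level of the 7 was 31834 to 45821 TPM in SAP and 79353 to 90124 TPM in Control. Alb alone averaged 27673 ± 4277 TPM in SAP and 65029 ± 4415 TPM in Control, so the sum mostly follows that 1 gene. Of 13 neutrophil and monocyte markers 5 were tested. Of these 4 were higher, which is 80% beside 19.5% of all tested genes. They were led by S100a9 (3.13) and by Itgam, at 3.99 ± 1.13 TPM in SAP and 0.228 ± 0.149 TPM in Control. Some of the 4, Itgam among them, stayed below 1 TPM in every control and passed the filter only through SAP libraries. The summed level of the list was 43.4 to 117 TPM in SAP and 6.21 to 21.7 TPM in Control. Ly6g, which defines neutrophils, and the granule genes Camp, Ngp, Mpo and Elane were not tested, at no more than 1.65 TPM. Cxcr2, Ly6c2 and Ccr2 were not tested either, at no more than 1.89 TPM. Among these untested markers only Cxcr2 had no overlap of the groups, at 0.29 to 0.89 TPM in SAP and 0.04 to 0.13 TPM in Control. Of 11 Kupffer cell and macrophage markers 2 were higher (Marco, 4.50, and Cd68, 0.66) and 3 lower (Clec4f, -0.69, Vsig4, -0.72, and Timd4, -0.59, all markers of resident Kupffer cells). These shares, 18.2% higher and 27.3% lower, lie near those of all tested genes (19.5% and 25%). The 3 lower calls were lost with the Xist split as a term and among the high Xist libraries. That of Vsig4 was lost in 3 of 23 alternatives in all. The summed level of the list was 222 to 501 TPM in SAP and 249 to 372 TPM in Control. Their part in the changes of the serum amyloid A genes was not tested.

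Of 7 adipocyte markers only Cidec (1.65) and Fabp4 (1.09) were tested, and both were higher, beside 19.5% of all tested genes. The sums of the list were 33.5 to 55.6 TPM in SAP and 16.1 to 21.0 TPM in Control. Adipoq and Plin1, which define adipocytes, reached at most 0.63 TPM. Of 7 endothelial markers, 2 were higher (Lyve1, 1.25, and Pecam1, 0.38) and 5 not past. That is 28.6% higher and none lower, beside 19.5% and 25% of all tested genes. The sums of the list were 92.0 to 127 TPM in SAP and 84.7 to 122 TPM in Control. Of 5 cholangiocyte markers Krt19 (-0.30) and Spp1 (0.14) were tested and did not pass, with sums of 15.9 to 41.03 TPM in SAP and 14.5 to 29.7 TPM in Control. None of the 8 pancreatic acinar markers was tested, with sums of 0.43 to 1.11 TPM in SAP and 0.47 to 15.4 TPM in Control.

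Control 5, the only low Xist control, was the lowest control for all 4 members, which rests on 1 library. Among SAP livers the mean log2(TPM + 1) was higher in low Xist libraries for Saa1, Saa2 and Saa4. It was 15.39 against 15.18 for Saa1, 15.53 against 15.34 for Saa2 and 9.29 against 8.86 for Saa4. For Saa3 it was 13.35 in low and 13.50 in high Xist SAP libraries. The SAP values overlapped between the classes for all 4. Among the 7 high Xist libraries (2 SAP, 5 Control) the log2 change was 6.60 for Saa1, 8.98 for Saa2, 9.92 for Saa3 and 1.20 for Saa4, all past the threshold in limma (highest adjusted p = 0.000621, for Saa4). Among the 5 low Xist libraries (4 SAP, 1 Control) it was 8.99 for Saa1, 10.79 for Saa2, 10.24 for Saa3 and 1.96 for Saa4, with no test because there was 1 control. What the split stands for was not tested.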

How the data were processed

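RNA of 6 SAP and 6 Control livers was extracted with Trizol and made into Illumina libraries, per the labels' protocols. The authors deposited 1 table of 55487 rows, whose values were read as TPM: totals lay between 993412 and 995793 in every library, and no header or label names the unit. The submitters' processing notes name edgeR without a role or version. The aligner, build, annotation and use of strand are not stated there or in the labels. TPM allows no count model, keeps no depth and gives no counting interval.

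For symbols repeated by 120 rows, only the one with the highest median was used. limma 3.58.1 in R 4.3.3, with trend, was fitted to log2(TPM + 1) of genes that reached 1 TPM in 6 or more of 12 libraries, with the group as the only term, and two-sided p-values were adjusted with Benjamini-Hochberg over all 11335 genes at 0.05. The pipeline was tested on simulated data. Ratios and correlations used exact permutation tests in scipy 1.17.1. Positions and transcripts came from GENCODE M21, promoters from RefSeq, where all 4 members matched. Motif letters and the 250-base window were settled after matches had been seen: the looser NF-kB letters came first and were replaced by the consensus, and both are given.

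The members and lists were chosen with earlier results of these data known. Genes named were all 4 members, the 4 with the smallest adjusted p of each of 5 pathway lists and 2 of each of 7 marker lists. The tested neighbours and the 3 genes most like each member were named too, plus 10 added after their values were seen. Il1a and Il6st were added later, also with their values seen. Of the list members that were not tested, those named are given by their highest value, and the rest are not named. The symbol Tf in the hepatocyte list had no row. Alternatives of the fit were 11 of scaling, filter, pseudocount, trend, repeated symbols or libraries, and 12 that left out 1 library each. No 2 libraries held identical values.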

Additional observations from a re-analysis of the deposited data

Results flagged for a closer look

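Saa1 in SAP 14 stood at 59517 TPM, far from the other 5 SAP livers at 32804 to 42214 TPM. Saa2 and Saa3 were also highest in that library. For Saa2 the gap to the next library was 0.615 of the range, just under the limit given below, against 0.648 for Saa1 and 0.340 for Saa3. Orm3, the gene most like Saa4, stood at 7.38 TPM in Control 5, against 11.95 to 14.01 TPM in the other controls. Among the marker genes, Marco stood at 76.6 TPM in SAP 10, against 34.1 to 49.1 TPM in the other SAP livers, Vsig4 at 26.8 TPM in SAP 10, also the highest SAP liver, and Itgam at 0.52 TPM in Control 8, against 0.12 to 0.22 TPM in the other controls. Each was picked out because its gap to the nearest library exceeded 0.625 of the group's range. Of 136 groups of 6 values examined this picked out 5 (3.68%), where chance gives about 5%.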

How the results depend on the processing

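Saa1, Saa2, Saa3 and Saa4 stayed higher in SAP and past the threshold in all 23 alternatives, at 6.60 to 7.46, 8.98 to 9.75, 9.70 to 10.04 and 1.20 to 1.83 on the log2 scale without leaving out single libraries, and at 6.74 to 7.32, 9.11 to 9.58, 9.79 to 9.99 and 1.44 to 1.65 when 1 library was left out. The order of Saa3 and Saa2 turned under quantile normalization, at 9.70 and 9.75, and in the low Xist libraries, at 10.24 and 10.79. Counts over all genes moved to 3498 higher on rescaling without the 4 genes and to 1847 lower in high Xist libraries. They ranged from 1898 to 2389 higher and 2496 to 3042 lower when 1 library was left out.

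In high Xist libraries the log2 ratio differences were 2.38 for Saa2/Saa1, 3.32 for Saa3/Saa1 and -5.40 for Saa4/Saa1, with an exact adjusted p of 0.0952 each, the smallest that 2 against 5 libraries can give. They were 2.15 to 2.37, 2.60 to 3.08 and -5.77 to -5.25 when 1 library was left out. Without the 2 libraries farthest from the median, r of Saa1 and Saa2 in SAP was 0.983 and that of Saa1 and Saa4 in Control was -0.81.

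List counts are small, so 1 gene moves them. Lower inducers and receptors went from 2 to 1 on rescaling, with no filter, with the Xist class as a term and in high Xist libraries, and were 1 to 2 when 1 library was left out (1 without Control 3, 4, 6 or 8). Lower transcription factors went from 1 to 0 under quantile normalization, TMM-like scaling, rescaling, no filter and the Xist term, and were 0 to 1 when 1 library was left out (0 without SAP 10 or 11 or Control 3, 4 or 6). Lower proteolysis genes went from 2 to 1 under quantile normalization, TMM-like scaling, rescaling, no trend, the Xist term and high Xist libraries, and were 1 to 2 when 1 library was left out (1 without SAP 11, 13 or 14 or Control 3, 4, 6 or 8). Higher proteolysis genes went from 2 to 4 under quantile normalization and with no filter. With a mean of at least 5 TPM, which tests fewer genes, 3 inducers and receptors and 2 serum amyloid A receptors were higher.

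Signs turned for Ctsd (0.23) and Apoa1 (-0.29) under quantile normalization, Gstp2 (0.044), Saal1 (0.0019) and Tsg101 (0.0023) on rescaling, Hps5 with the Xist term (0.15) and in high Xist libraries (0.084), and Cdv3 in high Xist libraries (-0.016). When 1 library was left out, Gstp2 ranged from -0.30 to 0.22 (above 0 without SAP 12 or SAP 15) and Spp1 from -0.014 to 0.27 (below 0 without SAP 10). Over all alternatives, single genes lost the threshold 78 times and gained it 11 times with the same sign. Of the turned changes, those of Ctsd and Apoa1 passed the threshold. The cause was not tested.

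No paired analysis was possible because the groups share no replicate number. Depth and the assignment of shared reads are unknown, which limits low values and the split between Saa1 and Saa2. The time after caerulein is unstated.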
